A study of Mus musculus with 14 samples.

Results

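Fgf1, Grm4, Prss41, Glo1, Abhd3, Dnah8, Tagap1 and H2-Bl belong to a set of 9 of the 55335 genes counted in RNA from mouse intestinal stem cells. They were selected on their KO over WT difference, because their counts differed strongly between Chrm3 KO and WT libraries both with and without ES, so that those differences are described here and not tested. In libraries from a separate ageing experiment, the range of levels overlapped that of KO for 8 of the 9 genes and that of WT for 0, while Abhd3 lay between the genotypes. Most Dnah8 levels in that experiment also lay above KO and below WT.

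The cells were Lgr5-positive intestinal stem cells, sorted by flow cytometry for EGFP expressed from the Lgr5 locus, and polyadenylated RNA was sequenced in strand-specific libraries. In the Chrm3 experiment every mouse carried the Lgr5CreERT2-IRES-GFP allele, a tamoxifen-inducible Cre driven by Lgr5, together with floxed Chrm3 alleles, which encode the M3 muscarinic acetylcholine receptor. KO mice received TAM (tamoxifen) and WT mice received vehicle, in both cases for 3 days before ES, the stress model of the study, and the groups were KO ES, KO NT, WT ES and WT NT with n = 2 libraries each. The ageing experiment used Lgr5CreERT2-IRES-GFP mice at 18 months (old) and 2 months (young), with n = 3 libraries each, for which no floxed Chrm3 allele, injection or ES is named. The labels give no inbred strain, no age for the Chrm3 mice and no statement that each library came from a separate animal, so the p-values refer to library-to-library spread, which may be technical. Genotype and injection changed together, and any other difference between the KO and the WT mice cannot be told apart from them.

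Libraries held 26683563 to 36882310 counts. Chrm3 itself, on chromosome 13, was counted in all libraries, with 256 and 213 counts in KO ES, 343 and 254 in KO NT, 357 and 291 in WT ES and 355 and 386 in WT NT. In CPM, counts scaled to a common library size, the 4 KO libraries (6.04 to 9.24) lay below the 4 WT libraries (10.9 to 13.0), and since the labels do not say which exons are floxed, counts over the whole gene check the KO label only in part. The summed level of 6 intestinal stem cell markers (Lgr5, Olfm4, Ascl2, Smoc2, Axin2 and Slc12a2) was 13650 to 14364 CPM in KO ES and 14191 to 15898 CPM in KO NT, against 10681 to 11042 CPM in WT ES and 13623 to 13927 CPM in WT NT, and 11453 to 14551 CPM in old and 12442 to 12905 CPM in young. That of 12 leukocyte markers was 64.6 to 104 CPM in the Chrm3 libraries, 127 to 142 CPM in old and 42.7 to 72.8 CPM in young.

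The genes serve unlike functions. Fgf1 is a secreted growth factor that binds all FGF receptors, and Grm4 is a glutamate receptor that couples to inhibitory G proteins. Glo1 (glyoxalase 1) starts the glutathione-dependent removal of methylglyoxal, a toxic by-product of glycolysis, and in inbred mouse strains a segment that holds Glo1 and neighbouring genes is known to vary in copy number. Abhd3 is a phospholipase of the alpha/beta hydrolase family. Prss41 is a trypsin-like serine protease best known from the testis, Dnah8 is an axonemal dynein heavy chain of the sperm flagellum, Tagap1 is a relative of the T cell GTPase-activating protein gene Tagap, and H2-Bl is a class I-like gene of the major histocompatibility complex that is annotated as a polymorphic pseudogene.

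By position on GRCm38, 7 of the 9 genes lie on chromosome 17 and 2 on chromosome 18. In order along chromosome 17 lie Tagap1 (6955011 to 6961156, minus strand), Prss41 (23836785 to 23844172, minus), Grm4 (27422387 to 27521403, minus), Glo1 (30584936 to 30626871, minus), Dnah8 (30624354 to 30877365, plus) and H2-Bl (36080115 to 36084223, minus). From Tagap1 to H2-Bl the distance is 29.1 Mb. The files list the genes by Ensembl identifier as ENSMUSG00000052031 (Tagap1), ENSMUSG00000024114 (Prss41), ENSMUSG00000063239 (Grm4), ENSMUSG00000024026 (Glo1), ENSMUSG00000033826 (Dnah8), ENSMUSG00000073406 (H2-Bl), ENSMUSG00000002475 (Abhd3) and ENSMUSG00000036585 (Fgf1). Abhd3 (10642092 to 10706771, minus) and Fgf1 (38838673 to 38929472, minus) lie on chromosome 18. The rule that chose the genes did not use position, and neither chromosome carries Chrm3.

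Across the whole table, 4.46% of 17364 tested genes differed between KO and WT in NT at an adjusted p under 0.05 in edgeR's quasi-likelihood test, 2.1% lower in KO and 2.36% higher. In ES the share was 7.52%, of which 4.45% were lower in KO and 3.07% higher. The same direction in both was found for 2.06%, and for 14.1% the 4 KO libraries did not overlap the 4 WT libraries in level. All 9 members lie in each of these classes through the way they were chosen, 8 lower in KO and 1, Tagap1, higher, and nothing is read from that count. All 9 passed the low-count filter of the Chrm3 table and 8 that of the ageing table.

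The growth factor and the glutamate receptor were the furthest apart. Fgf1 had 6.19 and 7.15 CPM in KO ES and 4.69 and 5.31 CPM in KO NT, against 138 and 179.7 CPM in WT ES and 168 and 166 CPM in WT NT. The lowest WT library lay far above the highest KO library, and the log2 fold change, KO over WT, was -4.57 ± 0.14 (standard error, as for each log2 fold change below) in ES and -5.07 ± 0.14 in NT. In the ageing libraries Fgf1 had 6.27, 6.91 and 5.63 CPM in old and 7.68, 7.76 and 8.56 CPM in young. The old levels lay within the KO range, the young ones just above it, and all lay far below WT. In bulk RNA, for this and each later gene, fewer cells of a type and less RNA per cell cannot be told apart.

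Grm4 had 22 and 7 counts in KO ES and 16 and 24 in KO NT, against 533 and 407 in WT ES and 635 and 585 in WT NT. In CPM its mean was 0.514 ± 0.249 in KO and 18.0 ± 2.21 in WT (SD, n = 4 libraries each), with log2 fold changes of -5.22 ± 0.28 in ES and -5.11 ± 0.25 in NT. The old libraries had 24, 9 and 15 counts and the young ones 22, 9 and 14, within the range of KO. Grm4 was therefore near the limit of counting everywhere except in WT.

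Glo1 had 108 and 113 CPM in KO ES and 106 and 112 CPM in KO NT, against 238 and 235 CPM in WT ES and 235 and 228 CPM in WT NT. The spread within a genotype was small beside the distance between them, with means of 109.6 ± 3.58 CPM in KO and 234 ± 4.16 CPM in WT (SD, n = 4 each), so that the WT mean was 2.14 times the KO mean. The old libraries had 103, 111 and 102 CPM and the young ones 107, 108 and 106 CPM. All 6 thus lay within or just below the KO range.

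Dnah8, the neighbour of Glo1 on the other strand, had 83.6 and 78.6 CPM in KO ES and 89.0 and 82.5 CPM in KO NT, against 194 and 185 CPM in WT ES and 171 and 176 CPM in WT NT. The WT mean was 2.17 times the KO mean, close to the ratio of Glo1. In the ageing libraries its levels were 91.7, 84.3 and 113 CPM in old and 101, 103 and 106 CPM in young, most of them above the highest KO library and all below the lowest WT library. The annotated ends of Glo1 and Dnah8 overlap on opposite strands. The libraries were strand-specific, but the strand setting of the counting is not given, so reads from the overlap cannot be assigned.

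2 further genes of the same segment, Btbd9 and Glp1r, were set beside this pair. Btbd9 had 29.4 and 25.0 CPM in KO ES and 32.6 and 31.5 CPM in KO NT, against 44.2 and 45.8 CPM in WT ES and 46.8 and 45.3 CPM in WT NT, a smaller distance than that of Glo1 in the same direction. The incretin receptor gene Glp1r had 37 and 32 counts in KO ES and 41 and 30 in KO NT, against 41 and 29 in WT ES and 45 and 31 in WT NT, so that its KO and WT libraries overlapped. Glp1r was higher in old, at 2.65, 2.23 and 3.38 CPM, against 0.272, 0.682 and 0.476 CPM in young (log2 fold change 2.50 ± 0.35, edgeR adjusted p = 0.00167). Within the Dnah8 neighbourhood an antisense transcript, AC165951.1 in the annotation, had 0 counts over the 4 KO libraries, 10.2 to 13.8 CPM in the WT libraries and 6 counts over the 6 ageing libraries.

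Because Glo1 and Dnah8 differed together, their promoters are shown with that of Tagap1, the 1 member that was higher in KO. The sequences are from RefSeq on GRCm38.p6, 250 bases before to 50 bases after the start that RefSeq annotates, and lie at chr17:30612610-30612909 on the minus strand for Glo1, chr17:30626686-30626985 on the plus strand for Dnah8 and chr17:6961107-6961406 on the minus strand for Tagap1. Capitals mark matches to a CCAAT box (CCAAT) or a GC box (GGGCGG) on either strand. The gene positions above are from GENCODE, whose outermost ends differ from these starts, so that the Glo1 window lies inside the GENCODE span of the gene.
Glo1: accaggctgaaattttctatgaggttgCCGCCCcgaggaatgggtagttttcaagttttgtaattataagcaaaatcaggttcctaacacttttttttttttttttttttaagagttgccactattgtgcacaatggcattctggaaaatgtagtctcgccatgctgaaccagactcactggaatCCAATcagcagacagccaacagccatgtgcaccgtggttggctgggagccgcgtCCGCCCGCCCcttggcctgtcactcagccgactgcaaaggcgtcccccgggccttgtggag
Dnah8: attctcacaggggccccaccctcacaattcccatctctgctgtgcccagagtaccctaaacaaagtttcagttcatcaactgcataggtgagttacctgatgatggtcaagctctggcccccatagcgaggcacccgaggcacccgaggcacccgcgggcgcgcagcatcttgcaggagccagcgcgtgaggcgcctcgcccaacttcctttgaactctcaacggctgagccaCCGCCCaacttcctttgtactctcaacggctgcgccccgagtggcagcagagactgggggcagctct
Tagap1: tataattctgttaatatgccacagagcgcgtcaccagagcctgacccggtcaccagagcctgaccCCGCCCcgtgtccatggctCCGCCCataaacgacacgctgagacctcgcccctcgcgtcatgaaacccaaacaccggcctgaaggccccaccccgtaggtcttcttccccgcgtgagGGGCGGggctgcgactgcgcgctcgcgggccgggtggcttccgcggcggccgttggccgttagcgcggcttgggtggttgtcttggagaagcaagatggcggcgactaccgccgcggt

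The Glo1 window held 1 CCAAT box and 3 GC boxes, of which a pair overlaps, the Dnah8 window 1 GC box and the Tagap1 window 3 GC boxes, and none of them held TATAAA. In 32851 mouse promoter windows of this length, 35.7% held a GC box, 37.4% CCAAT and 13.6% TATAAA. Their GC content was 49.7% for Glo1, 60.3% for Dnah8 and 66.3% for Tagap1. A promoter entry was found for 4 members, the other being Prss41, whose window held none of these motifs.

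The protease gene Prss41 had 4.89 and 4.65 CPM in KO ES and 3.82 and 4.04 CPM in KO NT, against 16.7 and 17.6 CPM in WT ES and 21.4 and 20.3 CPM in WT NT. Old libraries had 3.71, 2.94 and 5.57 CPM and young ones 5.99, 2.79 and 5.93 CPM, around the KO values on both sides. Prss41 is overlapped on the opposite strand by Prss32, which has more counts, with 119 and 128 CPM in KO ES and 101 and 115 CPM in KO NT, against 171 and 163 CPM in WT ES and 163 and 157 CPM in WT NT. Prss32 also lay lower in KO, by less than Prss41, so the share of Prss41 counts that could come from the overlap was not tested. Of 6 tested tryptase-type proteases, 3 were lower in KO in both ES and NT, namely Prss41, Prss32 and Prss33, and 0 were higher. Over all tested genes 2.06% were called the same way in both. Prss33 and Prss32 are the nearest tested genes on either side of Prss41, itself chosen on this difference. The count thus describes 1 locus, and nothing is read from it about the family. Prss33 had 9 and 3 counts in KO ES and 10 and 4 in KO NT, against 33 and 39 in WT ES and 33 and 49 in WT NT.

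Abhd3 had 13.0 and 13.4 CPM in KO ES and 12.4 and 14.5 CPM in KO NT, against 42.3 and 46.3 CPM in WT ES and 27.4 and 30.2 CPM in WT NT. It was the member whose ageing levels matched KO least, at 18.1, 16.4 and 19.7 CPM in old and 19.4, 17.8 and 18.5 CPM in young. All 6 ageing libraries were above every KO library and below every WT library.

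Tagap1 was the 1 member with more RNA in KO. It had 34.4 and 33.3 CPM in KO ES and 38.6 and 34.7 CPM in KO NT, against 9.20 and 11.3 CPM in WT ES and 10.7 and 10.6 CPM in WT NT. Its related gene Tagap went the other way, with 2.63 and 2.95 CPM in KO ES and 2.18 and 2.82 CPM in KO NT, against 8.84 and 9.69 CPM in WT ES and 9.02 and 8.03 CPM in WT NT. The log2 fold changes of the pair were 1.73 ± 0.11 for Tagap1 and -1.72 ± 0.18 for Tagap in ES, and 1.78 ± 0.11 and -1.78 ± 0.18 in the same order in NT. The summed level of the 2 genes was 37.9 ± 1.99 CPM in KO and 19.3 ± 1.29 CPM in WT (SD, n = 4 each). How reads that fit both copies were counted is not given, so the values of both genes are uncertain. In the ageing libraries Tagap1 had 38.6, 35.6 and 37.0 CPM in old and 34.1, 40.0 and 41.3 CPM in young, and Tagap had 2.63 to 3.81 CPM, so that both genes stood near KO.

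H2-Bl had 3.62 and 3.01 CPM in KO ES and 3.15 and 4.28 CPM in KO NT, against 32.2 and 30.7 CPM in WT ES and 21.7 and 20.5 CPM in WT NT. The old libraries had 4.43, 4.09 and 3.56 CPM and the young ones 4.42, 3.95 and 4.95 CPM, which overlapped KO and lay below WT. Class I genes have near-identical copies, so counts of H2-Bl are uncertain. Of 22 tested H2 genes, 13 were higher and 2 lower in KO in ES, and 8 were higher and 2 lower in NT, with a median log2 fold change of 0.49 in ES and 0.44 in NT against medians of 0.00 and -0.01 over all tested genes. H2-Bl thus lay against the direction of the median of this list, which mixes class I and class II genes. The other gene called lower in both was H2-T10, 1 of its neighbours, with log2 fold changes of -1.06 in ES and -0.88 in NT. Directly beside H2-Bl, H2-T-ps had -1.15 and -1.39 and was called in neither.

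**Figure D1:**
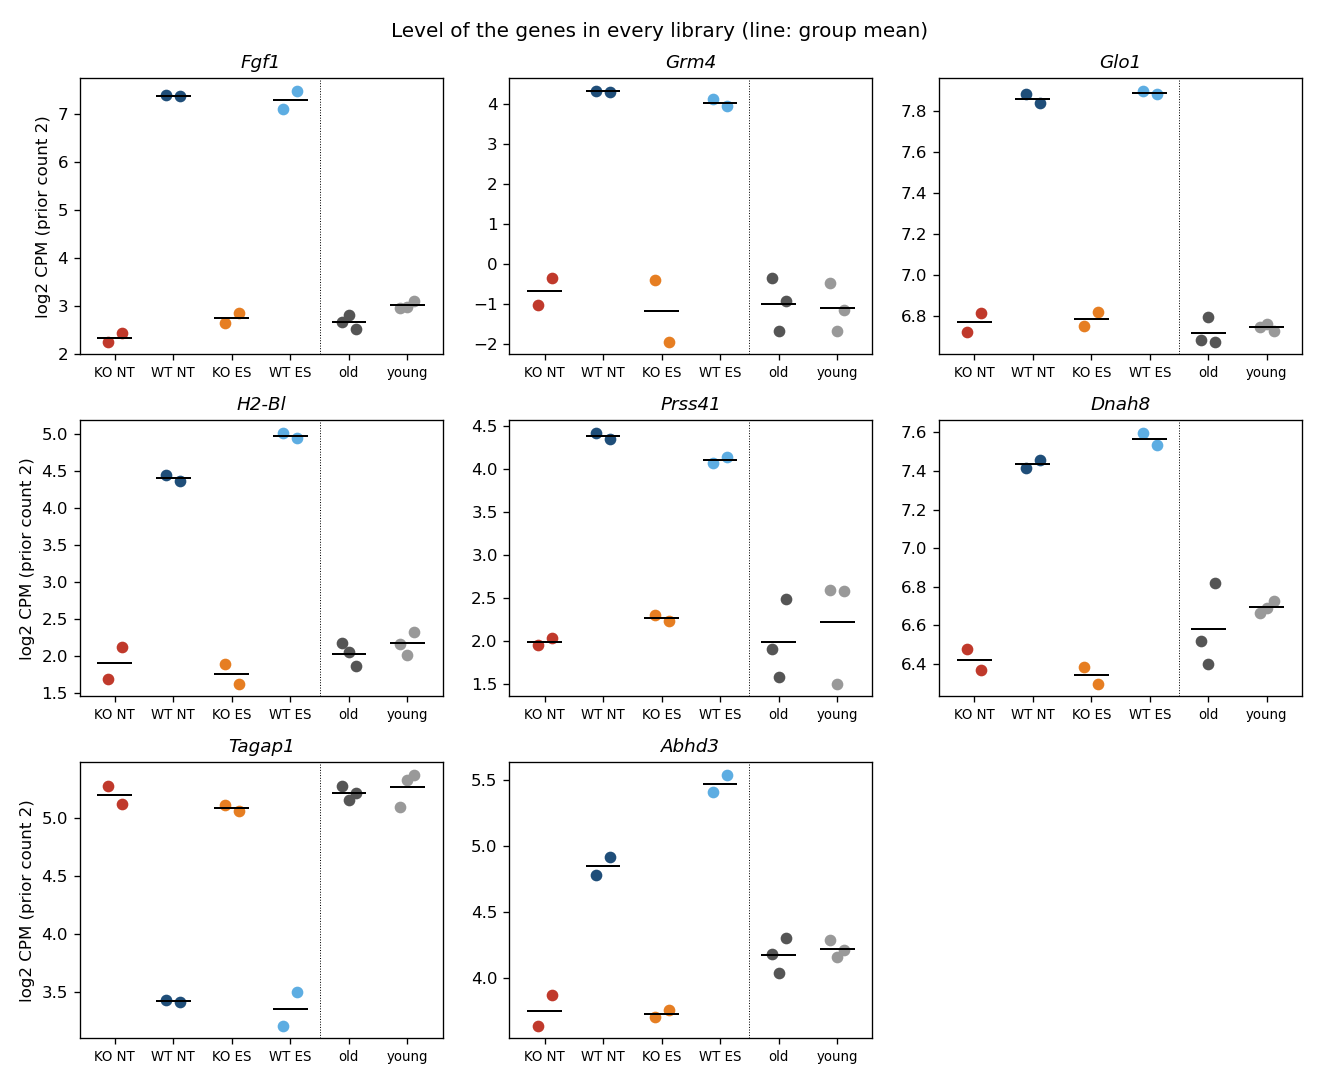
Level of each gene in every library, as log2 CPM with a prior count of 2 on the vertical axis, by group on the horizontal axis. Points are libraries, lines are group means and the dotted line separates the Chrm3 table from the ageing table, each scaled on its own. In each panel the WT points stand apart, and the old and young points lie near the KO points, with Abhd3 between the genotypes.

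Per kilobase of annotated exon, the order of mean levels differed between the genotypes. The exon length joins all annotated transcripts of a gene, 12101 bases for Glo1 and 26820 for Dnah8, so the order within a genotype depends on the annotation. In KO, Tagap1 was highest at 15.2 CPM per kb, followed by Glo1 at 9.06, Abhd3 at 5.72, Dnah8 at 3.11, H2-Bl at 2.09, Prss41 at 1.65, Fgf1 at 1.07 and Grm4 at 0.0860. In WT, Fgf1 was highest at 29.9 CPM per kb, followed by Glo1 at 19.4, Abhd3 at 15.7 and H2-Bl at 15.6. Prss41 at 7.20, Dnah8 at 6.76, Tagap1 at 4.52 and Grm4 at 3.02 came after them. The neighbours Abhd3 and H2-Bl, and Prss41 and Dnah8, differed in WT by less than the spread between libraries.

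The comparison with the ageing libraries did not choose the genes, although the WT and KO values on which it rests did. On a scale where 0 is the mean of the 4 WT libraries and 1 that of the 4 KO libraries (log2 CPM), the mean of the 6 ageing libraries was 0.94 for Fgf1, 1.02 for Grm4, 1.04 for Glo1, 0.91 for H2-Bl, 1.01 for Prss41, 0.77 for Dnah8, 1.06 for Tagap1 and 0.68 for Abhd3. All 9 members were nearer to KO, with a median of 1.01. The range of the ageing libraries overlapped the KO range for 8 of 9 members, all but Abhd3, and the WT range for 0 of 9.

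Over all 16506 genes tested in both tables, 45.6% were nearer to KO, with a median of 0.37. Among 335 other genes called the same way in KO against WT in ES and in NT, 43.0% were nearer to KO. That share was 79.6% of 54 genes on chromosome 17, 46.2% of 13 on chromosome 18 and 35.4% of 268 elsewhere. Of the 65 such genes that were at least 2-fold apart in both, 58.5% were nearer to KO, with 66.7% of 12 on chromosome 17, 2 of 2 on chromosome 18 and 54.9% of 51 elsewhere. The members were all at least 2-fold apart, and no test was made of these shares. A gene with a wide distance between WT and KO has more room to show a side, and levels set across tables that were scaled separately carry no test. The ageing mice differ from the KO mice in age, Chrm3 allele and injection, and which of these or other differences bear on the match was not tested.

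**Figure D2:**
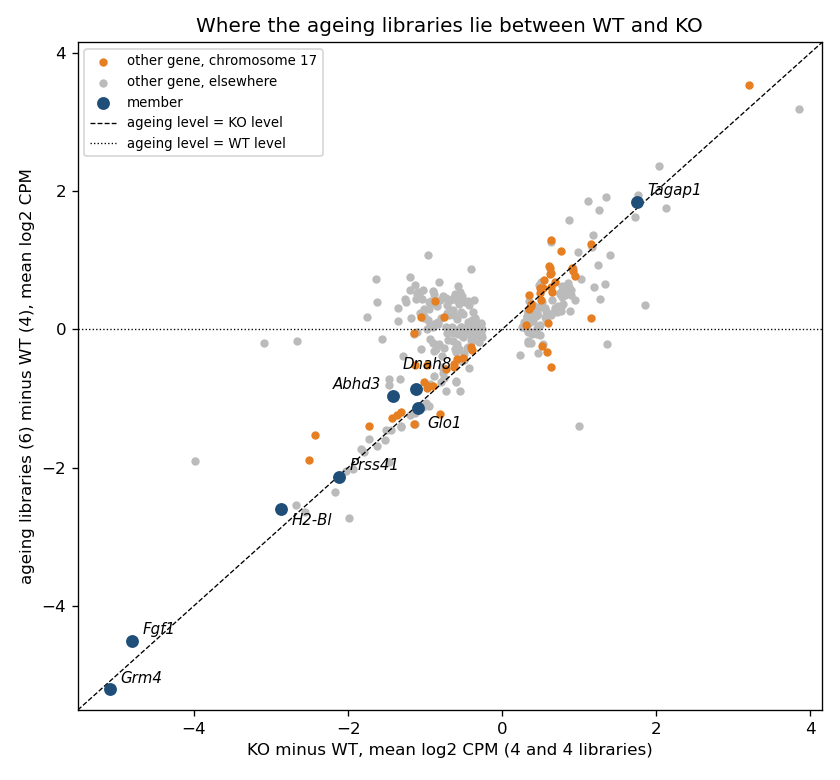
Mean log2 CPM of the 6 ageing libraries minus that of the 4 WT libraries (vertical) against KO minus WT (horizontal), for the members and the other genes called the same way in ES and in NT. Points on the dashed line have the KO level in the ageing libraries and points on the dotted line the WT level. Most members lie along the dashed line, as do many orange points of chromosome 17, while many grey points lie near the dotted line.

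Of all chromosomes, chromosome 17 had the highest share of genes called the same way in both KO comparisons. The count was 64 of 913 tested genes (7.01%) on chromosome 17, members included, and 15 of 450 (3.33%) on chromosome 18. The other chromosomes gave 0.949% to 2.79%. Between the outermost members of chromosome 17, 47 of 516 other genes (9.11%) were called, against 10 of 390 (2.56%) elsewhere on that chromosome and 292 of 16449 (1.78%) on the others. The ends of this interval were set by the members, and no test was made of these shares. The count of 64 was 32 without WT NT replicate 1, 30 without WT NT replicate 2 and 41 without KO ES replicate 2. In old against young, chromosome 17 gave 8.62% of its genes.

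Around each member, other genes within 500 kb were examined. Of 141 such genes, 27 (19.1%) were called the same way in ES and in NT, against 2.06% of all tested genes. Next to Fgf1, Arhgap26 had 11.1 and 10.2 CPM in KO ES and 10.3 and 11.96 CPM in KO NT, against 20.4 and 25.6 CPM in WT ES and 17.8 and 17.6 CPM in WT NT. Near Abhd3, Greb1l had 27 and 27 counts in KO ES and 33 and 31 in KO NT, against 112 and 91 in WT ES and 107 and 119 in WT NT. Both genes lay lower in KO, as did the members near them. Within 500 kb, 1 of 6 genes near Fgf1 and 2 of 9 near Abhd3 were called. The gene on the other side of Fgf1, Spry4, was called in neither comparison (log2 fold changes -0.72 in ES and -0.62 in NT). Of the genes directly beside Abhd3, Mib1 was called lower in KO (-0.25 and -0.35). The other, Snrpd1, was called in neither (0.20 and 0.13).

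Around Glo1 and around Dnah8 the 3 called neighbours were all lower in KO. Around H2-Bl, Prss41, Tagap1 and Grm4 the directions were mixed. Within 500 kb of H2-Bl, 4 called genes were higher in KO and 2 lower, near Prss41 there were 3 and 3, and near Grm4 1 was higher and 2 lower. Near Tagap1, 2 were higher, Rnaset2b with log2 fold changes of 0.89 in ES and 0.93 in NT and Rsph3b with 0.40 and 0.57. The other 2 were lower, Dynlt1c with -0.62 in ES and -0.55 in NT and Tmem181b-ps with -1.15 and -1.11. The goblet cell gene Tff3, which lies within 500 kb of Glo1, was lower in KO by log2 fold changes of -1.07 and -1.04, but its ageing level stood on the WT side at -0.16 on the scale of 0 to 1. Next to Grm4, Gm10505 had log2 fold changes of -2.30 in ES (edgeR adjusted p = 0.0669) and -2.74 in NT (adjusted p = 0.0213), so that it was called in NT, and its ageing position was 0.99. On the other side, Gm49774 had -0.47 and -0.63 and was called in neither. The nearest tested genes of Dnah8, 1700097N02Rik and Glp1r, were also called in neither.

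**Figure D3:**
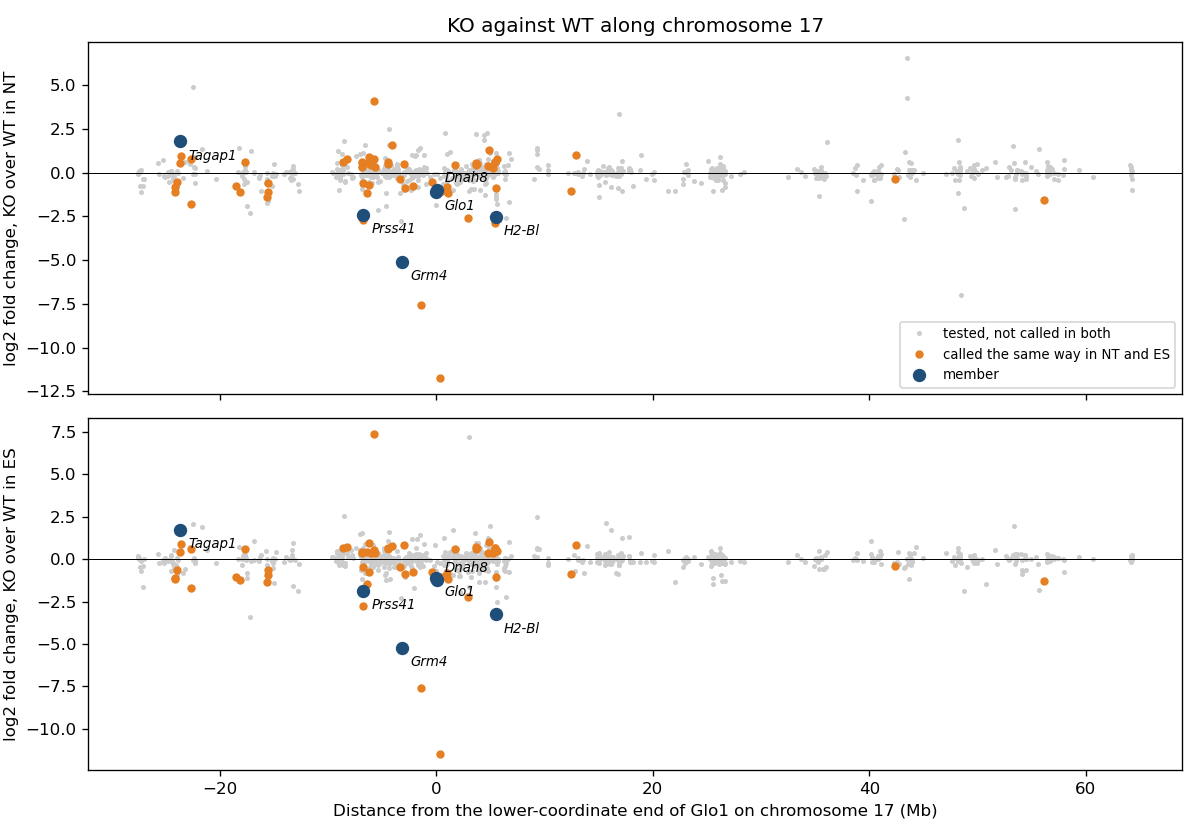
Log2 fold change of KO over WT in NT (upper panel) and in ES (lower panel) for tested genes of chromosome 17, by distance from the lower-coordinate end of Glo1 in Mb. Blue points are members, orange points other genes called the same way in both, and grey points the rest. Most orange points lie between Tagap1 and H2-Bl. The lowest point, AC165951.1, had 0 counts in KO, so its fitted value depends on the prior count.

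Other genes with the pattern of the members were found by the width of the gap between the 4 KO and the 4 WT libraries in log2 CPM, over 11489 named genes with a mean of at least 1 CPM. Grm4, Fgf1 and H2-Bl had the 3 widest gaps of the 923 genes that were lower in KO, Prss41 came at rank 7, Glo1 at 14, Dnah8 at 17 and Abhd3 at 18. Tagap1 had the widest gap of the 1020 genes that were higher in KO. These ranks restate the difference on which the members were chosen, and nothing is read from them. The filter on names also left out AC165951.1, with 0 counts in KO and 10.2 to 13.8 CPM in WT. The non-members with the widest gaps and less RNA in KO were Greb1l, Serpinh1, Adamts10, Tmem116, Tagap, Tcp11l2, Serpina1b and Tbc1d24, of which Adamts10, Tagap and Tbc1d24 are on chromosome 17 and Greb1l is on chromosome 18. Those with more RNA in KO included Scd2, Lmo3, Fam71a, Atf3, Zfp951, Arhgdig and Cep85, of which Arhgdig is on chromosome 17.

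These genes did not share 1 position of the ageing libraries. Tmem116, on chromosome 5, had 0.959 CPM in KO and 6.25 CPM in WT on average, and 1.05 CPM in the ageing libraries, a position of 0.95. Tbc1d24 averaged 22.3 CPM in KO, 55.5 CPM in WT and 24.2 CPM in the ageing libraries, a position of 0.91. Scd2, a fatty acid desaturase gene on chromosome 19, averaged 365 CPM in KO, 102 CPM in WT and 129.9 CPM in the ageing libraries, a position of 0.19 on the WT side. Lmo3 and Serpina1b also stood on the WT side, at -0.16 and -0.25.

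ES against NT was tested within each genotype, on libraries that also entered the choice. In WT, 2 of 9 members changed, against 3.5% of all genes. Abhd3 rose in ES, with a log2 fold change of 0.62 ± 0.10 (edgeR adjusted p = 0.0101), and H2-Bl rose by 0.58 ± 0.11 (adjusted p = 0.0261). In both, the ES and NT libraries of WT did not overlap. Cell type markers moved in the same comparison, with 6 of 6 stem cell markers lower in ES (median log2 fold change -0.40) and 3 of 3 goblet cell markers higher (median 0.96), and their part in the rise of Abhd3 and H2-Bl was not tested. Prss41 had -0.28 ± 0.10 and missed the threshold (unadjusted p = 0.0188, adjusted p = 0.163). Glo1 had 0.03 ± 0.06 and Tagap1 -0.07 ± 0.12.

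Each group had 2 libraries, and both calls depended on them. H2-Bl lost its call without WT NT replicate 1 (adjusted p = 0.181), WT NT replicate 2 (0.262), WT ES replicate 1 (0.151) or WT ES replicate 2 (0.0821), and with no low-count filter (0.0808). Abhd3 lost its call without WT NT replicate 1 (0.155), WT NT replicate 2 (0.102) or WT ES replicate 2 (0.0646). Over 16 alternatives the adjusted p ran from 0.00165 to 0.262 for H2-Bl and from 5.98e-05 to 0.155 for Abhd3, while the log2 fold changes stayed between 0.54 and 0.62 for H2-Bl and between 0.56 and 0.69 for Abhd3. Among H2 genes, 5 of 22 rose with ES in WT and 0 fell, H2-Q1 by 1.12 ± 0.20 and H2-D1 by 0.28 ± 0.06.

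In KO, edgeR called 0 of 9 members with ES, as did DESeq2 and limma-voom, against 0.513% of all genes, and 1 had an unadjusted p under 0.05. That gene was Fgf1, with a log2 fold change of 0.42 ± 0.17 (unadjusted p = 0.0323, adjusted p = 0.513). Abhd3 had -0.02 ± 0.11 and H2-Bl -0.16 ± 0.19. Grm4 had -0.39 ± 0.54 on 7 to 24 counts per KO library, so few that a change would be hard to call. The low-count filter used the WT libraries too, and with only the KO groups fitted 8 of the 9 members were tested. The absence of calls in KO is therefore no sign of a lack of response in such low genes. The ES effect in KO minus that in WT was -0.65 ± 0.15 for Abhd3 and -0.74 ± 0.22 for H2-Bl. This difference is the same number as the change between the KO over WT values on which the genes were chosen, so it is a description. Over all genes 0.109% passed its test, and edgeR called 0 of 9 members. At an unadjusted p under 0.05 there were 5, limma-voom called 0, and DESeq2 called 1, Abhd3 (adjusted p = 0.0343), which edgeR also called without KO NT replicate 1 (adjusted p = 0.0266).

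Age was tested in libraries that had no part in the choice. In old against young, edgeR called 0 of the 8 members tested, against 7.84% of all genes, and DESeq2 and limma-voom also called 0. Fgf1 was the 1 member with an unadjusted p under 0.05, at -0.35 ± 0.14 (unadjusted p = 0.0308, adjusted p = 0.174), with all 3 old libraries below all 3 young ones. Glo1 had -0.03 ± 0.06, Tagap1 -0.05 ± 0.08 and Abhd3 -0.04 ± 0.10, while Grm4 at 0.14 ± 0.51 and Prss41 at -0.28 ± 0.31 were measured less closely. Dnah8 had -0.10 ± 0.09 with all libraries and -0.23 without old replicate 3, its highest library, when it passed (adjusted p = 0.0439).

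**Figure D4:**
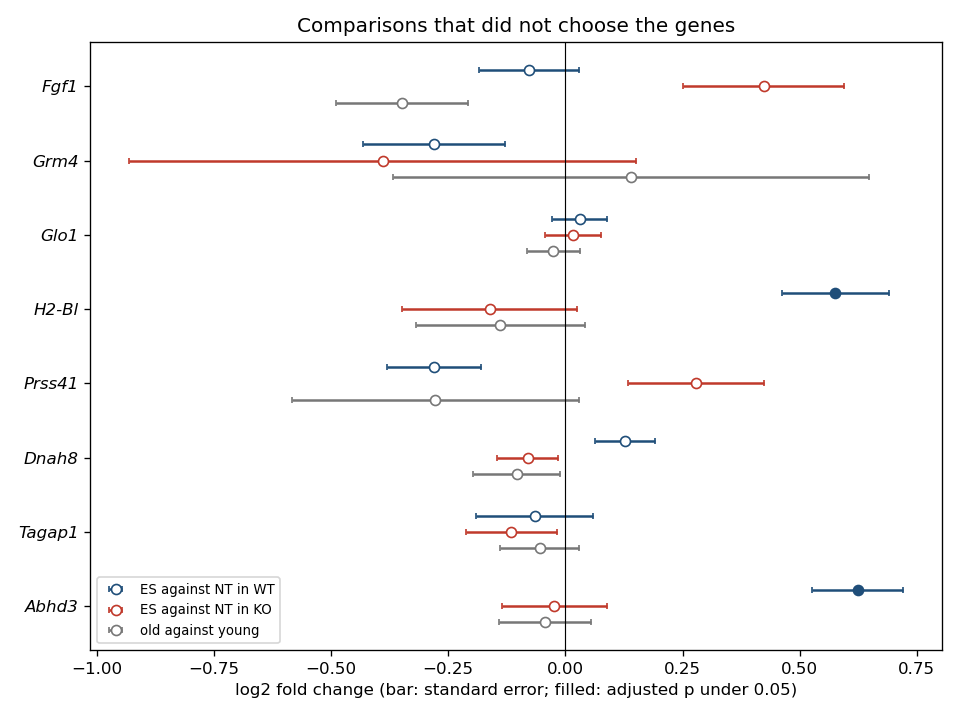
Log2 fold changes with standard errors of the members for the effect of ES in WT (blue), the effect of ES in KO (red) and old against young (grey). Filled points passed at an adjusted p under 0.05, and these are H2-Bl and Abhd3 for ES in WT.

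Other genes of the members' pathways were read from lists. A member in a list was chosen on its KO over WT difference, so its own call is no result of the list. Over all tested genes 7.52% were called in KO against WT in ES and 4.46% in NT. Among 12 tested FGF ligands and receptors, Fgf1 was the 1 gene called in KO against WT, and the list's median log2 fold change was -0.07 in ES and in NT. In old against young 4 of 13 were lower, among them Fgfr3 (-0.37 ± 0.07) and Fgfr4 (-0.43 ± 0.09), both receptors. Grm4 was the 1 metabotropic glutamate receptor with enough counts for a test in the Chrm3 table. Among 12 methylglyoxal detoxification genes, Hagh, which encodes the glyoxalase that follows Glo1 and also lies on chromosome 17, was higher in KO, with log2 fold changes of 0.53 ± 0.14 in ES and 0.76 ± 0.14 in NT. The aldehyde dehydrogenase Aldh2 was lower in ES (-0.22 ± 0.06).

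Of 8 axonemal dynein heavy chains, only Dnah8, chosen on this difference, was called in KO against WT. Of 19 alpha/beta hydrolase domain genes, 4 were lower in ES, among them Abhd3, Abhd6 (-0.95 ± 0.12) and Abhd18 (-0.59 ± 0.13), and 2 in NT, Abhd3 and Abhd17c (-0.28 ± 0.07). None of this family was higher in KO. Over all tested genes 4.45% were lower in KO in ES and 2.1% in NT, and Abhd3 is in both counts through its choice.

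A list of genes known to differ between inbred mouse strains was read in the same libraries. Nnt, a mitochondrial transhydrogenase gene on chromosome 13 that is partly deleted in a common inbred strain, had 132.0 and 132.2 CPM in KO ES and 8.51 and 52.2 CPM in KO NT, against 120.4 and 124 CPM in WT ES and 88.4 and 23.95 CPM in WT NT. In old it had 138, 137 and 135 CPM and in young 135, 142 and 149 CPM. Nnt thus varied between libraries of 1 group in NT, while Glo1 held within 106 and 112 CPM in the same KO NT libraries. H2-Ea-ps had 2 counts over the KO libraries and 0 in all others, Gbp2b had 2 counts over the young libraries and 0 in all others, and Ifi202b had 0 throughout. Pla2g2a was not called in KO against WT. No strain is given in the labels, and the part of strain in the values of the 9 genes was not tested.

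Markers of other cell types also moved with genotype, 3 of 6 stem cell markers being higher in KO in ES, and 1 of 6 lower in NT. The summed level of 3 goblet cell markers was 3467 to 3473 CPM in KO ES and 1952 to 2105 CPM in KO NT, against 7752 to 7944 CPM in WT ES and 3953 to 4077 CPM in WT NT, and it was 4521 to 7181 CPM in the ageing libraries. All 3 were lower in KO in both comparisons. The sum of 3 tuft cell markers was 27.6 to 31.1 CPM in KO ES and 19.2 to 25.5 CPM in KO NT, against 57.1 to 57.6 CPM in WT ES and 50.7 to 51.5 CPM in WT NT, and 57.8 to 131 CPM in the ageing libraries. These ageing sums stood on the WT side, unlike the 9 genes. Of 4 enterocyte markers, 3 were lower in KO in ES and 1 was higher in NT. Of 3 enteroendocrine markers, 2 were lower in ES and 0 in NT, and of 3 Paneth cell markers 1 was lower in each. Of 10 tested leukocyte markers only Tagap was called in KO against WT. The part of all these markers in the levels of the members was not tested.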

How the data were processed

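The authors deposited unnormalized read counts for each Ensembl gene identifier, as whole numbers. One table holds the 8 Chrm3 libraries and the other the 6 ageing libraries. The submitters' processing notes name mm10 and FastQC 0.11.2, while the aligner, the counting tool and its strand setting were not given in the sources used here. NT libraries are named Ctrl in the table and were read as NT. Positions are from GENCODE M21.

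Genes were kept with edgeR's filterByExpr defaults and scaled by trimmed mean of M-values (TMM). They were fitted in edgeR 4.0.16 (R 4.3.3) by quasi-likelihood, with 1 mean per group. The spread was estimated for each gene over all groups of its table. Adjusted p is Benjamini-Hochberg over all tested genes. Levels are CPM after TMM scaling, and log2 CPM used a prior count of 2. The tables were scaled and tested separately. The standard error of a log2 fold change is derived from its F statistic and is approximate. Library totals were 26683563 to 36882310 counts, and counting error is largest for low genes such as Grm4. The fit was tested on simulated data.

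The members, the gene lists and the rule for other named genes (nearest tested neighbours, the 8 widest gaps in each direction, up to 3 list members by p) were chosen with earlier results of these data known. From the lists, single genes are given where they bear on a member. Of the genes these name, 2 are not reported here, 1 of them a member, which the counts over all members still hold. AC165951.1, Tff3, Dynlt1c, Tmem181b-ps and H2-T10 fall outside that rule and were chosen after their values were seen. Alternatives were other size factors, count filters, DESeq2 1.42.0, limma-voom (limma 3.58.1), the older quasi-likelihood form, a replicate block, fitting only the groups compared, a stricter threshold, other scalings of levels, and leaving out each library.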

Additional observations from a re-analysis of the deposited data

How the results depend on the processing

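Each of the 9 genes kept its KO over WT direction in every alternative run, and 9 of 9 stayed nearer to KO in the ageing libraries. Members called in KO against WT stayed at 9 in ES in the alternatives run and were 8 or 9 in NT. In the main run 7.52% of all tested genes were called in ES and 4.46% in NT. The genes were chosen on these KO over WT values, so nothing is read from the kept direction or from these counts. With ES in WT the count of 2 was 1 with no low-count filter (Abhd3) and 0 at an adjusted p under 0.01, and 0 to 2 when 1 library was left out, where a lone library is assumed to vary like the other groups. The difference of ES effects gave 1 with DESeq2 and 0 to 1 with a library left out, and old against young 0 to 1. The chromosome 17 count of 64 was 36 with no low-count filter, 35 at an adjusted p under 0.01 and 30 to 61 with a library left out. Leaving out a library did not always lower calls. Over all genes, old against young gave 1318 calls with all libraries and 1485 without old replicate 3. The cause of the shifts was not tested.

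The labels do not say whether equal replicate numbers mark paired samples. Deviations of same-numbered libraries had correlations of -0.00832 to 0.103 in the Chrm3 table and 0.00454 to 0.0837 in the ageing table. With 2 libraries per group in the Chrm3 table, both replicates give the same value, so pairing was not settled. With a replicate block members called were 9 and 9 in KO against WT in ES and in NT, 2 with ES in WT, and 0 in each of the other comparisons, and the chromosome 17 count was 72. Over all genes the block gave 1757 and 998 calls in KO against WT in ES and in NT, 970 with ES in WT, 206 with ES in KO, 104 for the difference and 2020 for old against young.

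Sign changed, when 1 library was left out, only for log2 fold changes that passed neither before nor after. In ES against NT in WT the values ran for Fgf1 from -0.28 to 0.10 and for Tagap1 from -0.21 to 0.078. In ES against NT in KO the values ran for Grm4 from -1.51 to 0.29, for Glo1 from -0.028 to 0.057, for H2-Bl from -0.37 to 0.0604 and for Abhd3 from -0.14 to 0.088. In the difference of ES effects the values ran for Grm4 from -1.23 to 0.57, for Glo1 from -0.059 to 0.019 and for Tagap1 from -0.19 to 0.094. In old against young the values ran for Grm4 from -0.28 to 0.55 and for Abhd3 from -0.11 to 0.019.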
